A study of Homo sapiens with 2 samples.

Results

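The genes described here encode the DNA topoisomerases and the enzymes that repair them when they are trapped on DNA, in U937 cells that carried TWIST-1 or an empty vector. The set was chosen by name and held TOP1, TOP1MT, TOP2A, TOP2B, TOP3A, TOP3B, TDP1 and TDP2. A gene was used where the array table had an entry annotated with its symbol alone, and 7 of the 8 had such an entry, among 22465 named genes in all. TOP2B, the second target of anthracyclines, shares its only entry with a microRNA gene and was not analysed here. U937 is an established human cell line with monocytic features, which the study counts among its myeloid leukemia lines. Both cultures were transduced with a lentiviral vector, without an insert in the control and with TWIST-1 cDNA in the other. The study sorted transduced cells for green fluorescent protein, but its array methods do not state that the array cells were sorted. RNA of each culture was hybridized to 1 Affymetrix Human Transcriptome Array 2.0. With 1 array per condition there was no replicate error, no test and no p-value, and TWIST-1 cannot be told apart from any other difference between the cultures or the arrays.

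DNA topoisomerases cut DNA, pass strands through the cut and reseal it, which relieves the twisting that replication and transcription build up. Type I enzymes cut a single strand and type II enzymes cut both strands. TOP2A and TOP2B are the type II enzymes of human cells. Daunorubicin, an anthracycline, and mitoxantrone, a related anthracenedione, trap them on cut DNA, and both drugs are used in acute myeloid leukemia. The study treated vector- and TWIST-1-transduced U937 cells with these drugs, and the arrays bear on whether RNA of the drug targets and of their repair enzymes differed between such cultures. TOP2A is made mainly in dividing cells and its RNA peaks late in the cell cycle, while TOP2B is also made in resting cells.

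TOP2A and TOP1 had the lowest log2 ratios of the 7 measured genes, and TOP3A had the highest. The log2 ratio is the value on the TWIST-1 array minus the value on the vector array. At 1.2-fold, a log2 ratio of 0.26 and the fold that the study's array methods give (its results add a condition on P, which 1 array per condition cannot supply here), TOP2A was lower, and none of the 7 genes was higher. Across all named genes, 2.85% were at least 1.2-fold lower and 2.71% at least 1.2-fold higher, and a single gene of 7 does not set the group apart from that background. The ratios ran from -0.30 to 0.16, with 4 below 0 and 3 above. Their median was -0.02, beside 0.04 over all named genes. All 7 lay at or over the median level, where the median ratio was 0.003. Of the genes at that level, 4.23% were at least 1.2-fold lower and 1.66% at least 1.2-fold higher. The median of the 7 became 0.02 after another quantile normalization.

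The DNA just upstream of TOP2A and TOP1 is shown because these genes had the lowest ratios and their upstream sequences differ in motifs of cell cycle genes. Each sequence covers the 250 bases before the annotated start in RefSeq (GRCh38.p14), at chr17:40417897-40418146 on the minus strand for TOP2A and at chr20:41028572-41028821 on the plus strand for TOP1, written 5′ to 3′. Capitals mark the motif CCAAT or its complement ATTGG, then the motif TTTGAA or its complement TTCAAA, and the motif CANNTG.
TOP2A: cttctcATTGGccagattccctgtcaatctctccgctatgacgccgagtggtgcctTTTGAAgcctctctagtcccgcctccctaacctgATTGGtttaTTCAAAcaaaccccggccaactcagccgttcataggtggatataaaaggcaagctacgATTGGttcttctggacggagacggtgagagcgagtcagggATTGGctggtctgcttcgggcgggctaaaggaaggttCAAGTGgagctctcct
TOP1: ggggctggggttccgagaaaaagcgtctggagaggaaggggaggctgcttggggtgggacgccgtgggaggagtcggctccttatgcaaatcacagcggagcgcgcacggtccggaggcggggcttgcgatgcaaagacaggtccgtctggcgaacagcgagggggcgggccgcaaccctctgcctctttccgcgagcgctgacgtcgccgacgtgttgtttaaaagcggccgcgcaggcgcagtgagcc

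The TOP2A sequence held 4 CCAAT motifs, all as ATTGG, which begin 244, 160, 93 and 53 bases before the start. CCAAT is the motif bound by the factor NF-Y, which is known to act on many cell cycle promoters. Of 27305 promoter windows of the same length, 33.0% held at least 1 CCAAT motif on either strand and 0.93% held 4 or more. The TOP2A window also held 2 TTTGAA motifs, the form of the cell cycle homology element that MuvB complexes bind, and 1.77% of windows held 2 or more. It held 1 CANNTG motif, the E-box that basic helix-loop-helix factors such as TWIST-1 bind, as did 62.2% of windows at least once. The TOP1 window held none of these 3 motifs. The window of TOP1MT was not searched. Among the 6 other measured genes, CCAAT was found in TOP2A alone, TTTGAA in TOP2A and TDP1, and CANNTG in TOP2A, TOP3B and TDP2. No window of the 6 held CATATG or CATCTG (on either strand), which are particular forms of the E-box and occurred in 2.61% and 12.2% of all windows. These matches are letters in a window, and no binding was measured.

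TOP2A, the type II enzyme that separates sister chromatids in mitosis, had a log2 value of 8.86 on the vector array and 8.55 on the TWIST-1 array. The log2 ratio of -0.30 is 1.23-fold lower, and 376 of all named genes had a lower ratio. Genes as bright as TOP2A tended to have lower ratios themselves. Among the 663 other genes whose mean log2 value lay within 0.5 of that of TOP2A, the median ratio was -0.07, the SD was 0.14, and 5.58% had a lower ratio than TOP2A. Of these neighbours, 8.60% were at least 1.2-fold lower. The call of TOP2A depended on the scaling. Its ratio was -0.35 when ratios were centred on the median gene, and it was -0.25 after loess normalization and -0.23 after another quantile normalization, both short of 1.2-fold. In a bulk RNA sample, fewer cells with a transcript and less of it per cell cannot be told apart.

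TOP1, the type I enzyme of the nucleus and the target of camptothecins, had log2 values of 8.00 on the vector array and 7.74 on the TWIST-1 array. Its ratio of -0.25, or 1.19-fold lower, stopped just short of the threshold. Centred on the median gene it was -0.29 and past 1.2-fold, which made 2 lower genes of 7, against 4.83% of all named genes under that scaling. The 1576 genes near its level had a median ratio of -0.06, and 7.04% of them were lower than TOP1. TOP1MT, the mitochondrial enzyme of the same type, was at 6.84 and 6.91. Its ratio of 0.07 lay on the other side of 0 from that of TOP1, and the ratio of TOP1 minus that of TOP1MT was -0.33 (-0.30 after loess normalization). Of all named genes, 38.1% had a higher ratio than TOP1MT.

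TOP3A and TOP3B encode the remaining type I enzymes, which pass single strands. TOP3A works with the BLM helicase to take apart joined DNA molecules and is also found in mitochondria, while TOP3B acts on RNA as well as on DNA. TOP3A had log2 values of 6.31 and 6.47, and its ratio of 0.16, or 1.12-fold higher, was short of the threshold. Of all named genes, 11.8% had a higher ratio. TOP3B was at 6.29 on the vector array and 6.36 on the TWIST-1 array, with a ratio of 0.07. Both kept a ratio above 0 under each of the 4 scalings, between 0.12 and 0.16 for TOP3A and between 0.03 and 0.07 for TOP3B. The gap between TOP2A and TOP3A was the widest in the set, at -0.47 as deposited, -0.40 after loess normalization and -0.38 after another quantile normalization.

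**Figure D1:**
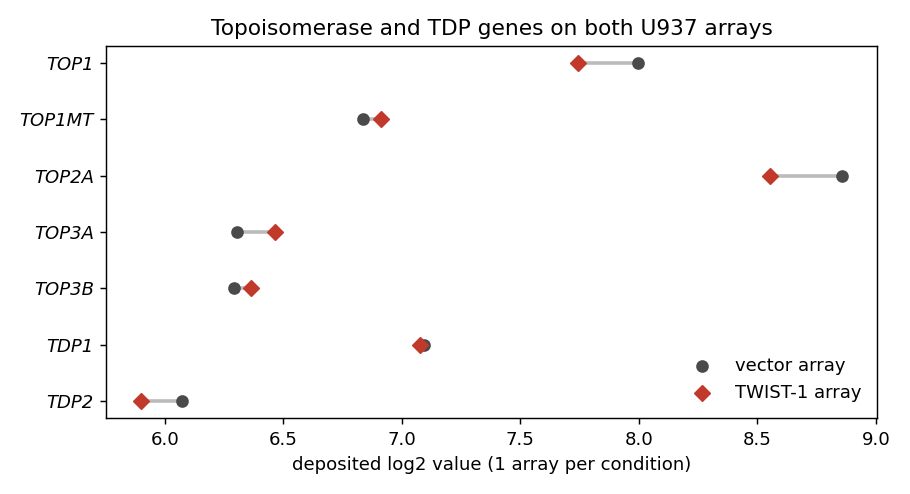
Deposited log2 values (horizontal axis) of the 7 measured genes on the vector array (circles) and the TWIST-1 array (diamonds), 1 array each, so no error bars can be drawn. TOP2A moved from 8.86 to 8.55 and TOP1 from 8.00 to 7.74, while TDP1 nearly coincided at 7.10 and 7.08. Positions of different genes are not an order of RNA amounts, since their probes differ.

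TDP1 and TDP2 are the phosphodiesterases that release trapped topoisomerases. TDP1 frees the 3′ ends of DNA from TOP1, and TDP2 frees the 5′ ends from type II enzymes, the kind that anthracyclines trap. TDP1 was nearly equal on both arrays, at 7.10 and 7.08. Its ratio was -0.02 as deposited and 0.02 after another quantile normalization, so it has no settled direction. TDP2 was at 6.07 on the vector array and 5.90 on the TWIST-1 array, a ratio of -0.17 or 1.13-fold lower. It stayed below 0 and short of 1.2-fold under each of the 4 scalings, between -0.21 and -0.17. In contrast to TOP2A and TOP1, genes near the level of TDP2 had a median ratio of 0.04, and 8.87% of these 4656 genes were lower than TDP2.

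**Figure D2:**
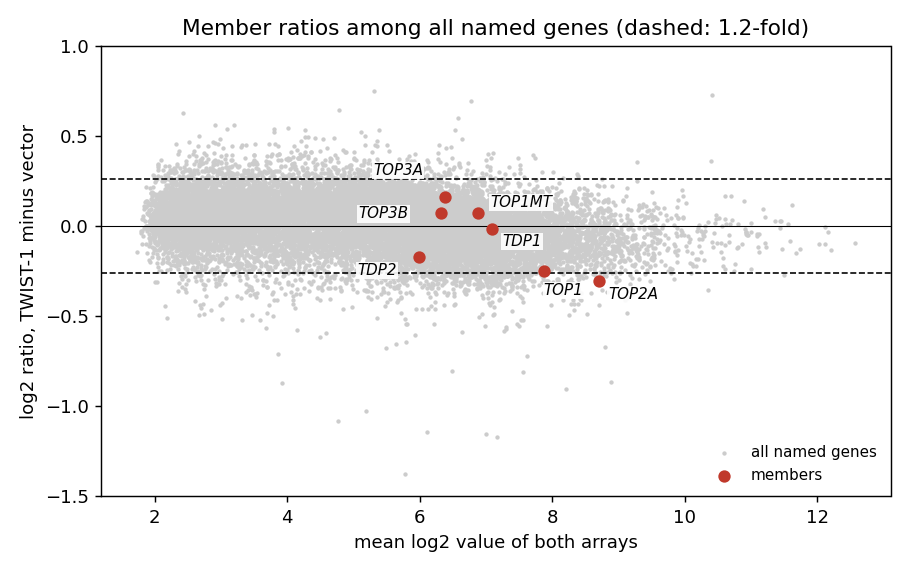
Log2 ratio (TWIST-1 minus vector, vertical axis) against the mean log2 value of both arrays (horizontal axis) for all 22465 named genes (grey points) and the 7 measured genes (red points), with dashed lines at 1.2-fold. TOP2A lies below the lower line at -0.30 and TOP1 on its inner side at -0.25, within the cloud of genes of like level.

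Signs held for 6 of the 7 genes under all 4 scalings, with TDP1 as the exception, and none of the 7 was past 1.2-fold under all of them. Of all named genes, those at least 1.2-fold lower and higher made up 4.83% and 1.46% with centred ratios, where 2 of the 7 were lower and none higher. After loess normalization they made up 3.65% and 1.47%, and after another quantile normalization 3.25% and 1.66%, and none of the 7 was past the threshold in either case. None was at least 1.5-fold different, as were 0.0979% (lower) and 0.0312% (higher) of all named genes in the deposited values. Centring subtracts the median ratio of 0.04 from every gene. Loess and quantile normalization raised the ratios of TOP2A and TOP1 and lowered that of TDP2.

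**Figure D3:**
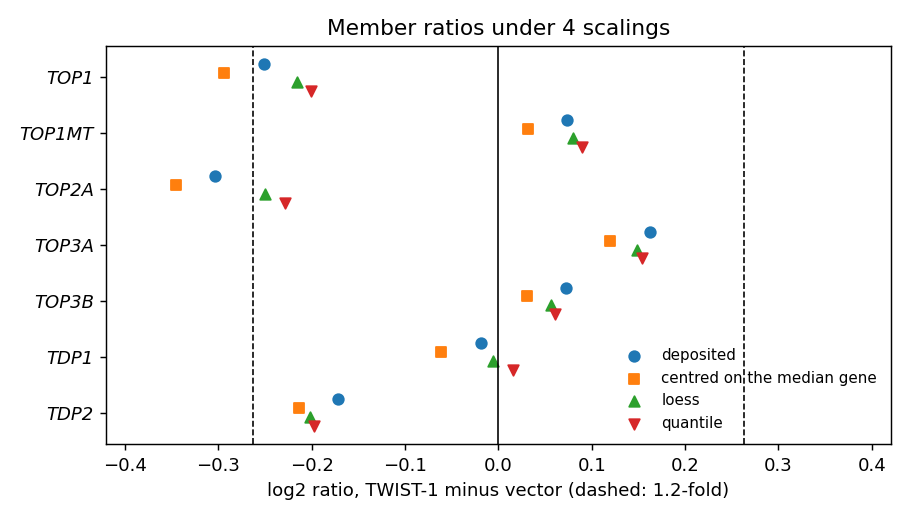
Log2 ratio (TWIST-1 minus vector, horizontal axis) of each measured gene under 4 scalings of the same 2 arrays, shown by marker shape, with dashed lines at 1.2-fold. TOP2A crosses the threshold in the deposited values (-0.30) and centred on the median gene (-0.35), TOP1 crosses it only when centred (-0.29), and the other genes stay inside.

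The partners of the TOP3 enzymes and the other RecQ helicases, which unwind DNA, had a list median of -0.07. Of 9 genes measured, 1 was lower, against 2.85% of all named genes, so the count does not set the list apart. It was the helicase gene RECQL, at 7.09 and 6.77 with a ratio of -0.32, and it was past 1.2-fold under all 4 scalings and with an offset of 16 on the linear scale. None was higher, and 6 ratios lay below 0. FMR1, which encodes the RNA-binding protein that works with TOP3B and TDRD3, had a ratio of -0.22. RMI2, a subunit of the BLM complex, had the highest ratio at 0.13, followed by RECQL5 at 0.06. Of 6 genes for proteins that bind topoisomerases or resemble them, none was past 1.2-fold and the median was -0.03. TOPBP1, a scaffold of the replication checkpoint, had the lowest ratio at -0.17, followed by TOPORS, a ligase that acts on TOP1, at -0.09. BTBD2, whose product binds TOP1, had the highest at 0.19. SPO11, the meiotic relative of type II enzymes, and TOP6BL, which encodes its partner, had equal values on both arrays.

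Of 27 genes that clear trapped complexes, 23 were measured and 15 had ratios below 0, with a median of -0.07. Of the 23, 20 lay at or over the median level, where 46.5% of genes had ratios below 0. At that level 4.23% were at least 1.2-fold lower, beside 4.35% of the 23. ZNF451, which encodes the SUMO ligase that helps TDP2 resolve trapped TOP2, was the lowest and the only one past 1.2-fold, at 6.74 and 6.47 with a ratio of -0.27. It stayed past the threshold under all 4 scalings, by as little as -0.266 after another quantile normalization, and missed it with the offset of 16, at -0.23. NBN followed at -0.21. It encodes a subunit of the nuclease complex that cuts trapped ends away, and the other subunits MRE11 (-0.19) and RAD50 (-0.16), named after their values were seen, were also short of the threshold. The highest ratios were those of APTX (0.10), which removes AMP from stalled DNA ligation, and ERCC1 (0.08), a nuclease subunit. Double-strand breaks left by TOP2 are joined by end joining. Of its 11 genes, ATM, the kinase that signals such breaks, was lower at -0.27, but it missed the threshold after loess normalization (-0.2627, where the threshold is a size of 0.2630), at -0.25 once the values were quantile-normalized again, and at -0.24 with the offset. XRCC5, a subunit of the Ku end-binding complex, was next at -0.16, and the repair polymerase genes POLM (0.15) and POLL (0.13) were highest. The list median was 0.02, and it turned to -0.03 after loess normalization. A single lower gene of 11, beside 2.85% of all named genes, does not set this list apart.

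Genes that carry anthracyclines across membranes or convert them lay on both sides of 0. Of 9 transport genes, 1 was lower, against 2.85% of all named genes, so the count does not set the list apart. It was SLC28A3, a nucleoside carrier linked to anthracycline handling, at 4.80 and 4.52 with a ratio of -0.28. It was past 1.2-fold under all 4 scalings but not with the offset, which shrinks the ratios of dim genes most, at -0.17. The uptake carrier SLC22A16 was next at -0.09, the mitochondrial transporter ABCB8 was highest at 0.15, and ABCB1, the drug efflux pump, followed at 0.11. ABCB1 was dim, with log2 values of 2.28 and 2.39 beside a median level of 5.19. Its ratio was 0.03 with the offset. The median was 0.06, and 3 of the 9 genes were as bright as the median named gene or brighter. Of 12 genes of anthracycline metabolism and sensitivity, 8 were measured, and none was past 1.2-fold. SLFN11, which sensitizes cells to agents that damage replicating DNA, had a ratio of -0.16 and the quinone reductase gene NQO1 one of -0.16. RARG, a retinoic acid receptor that is known to repress TOP2B, had the highest ratio at 0.23, and AKR1B10, an aldo-keto reductase, followed at 0.08. The list median was 0.03, and it turned to -0.03 after loess normalization.

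TOP2A lay within the range of the genes that peak with it in the G2 and M phases. Of 28 such genes measured, 6 were at least 1.2-fold lower and none higher, 25 had ratios below 0, and the median was -0.17. All 28 lay in the brighter part of the genes, at or over the median level, where 4.23% of 11233 genes were at least 1.2-fold lower and 46.5% had ratios below 0. Their log2 values ran from 5.39 to 9.62, and lower genes were more frequent at brighter levels. Of genes near the level of TDP2, 2.88% were at least 1.2-fold lower, and of those near TOP2A 8.60%. The shares over the brighter part are thus a loose background for the brightest of the 28. KIF11, a mitotic kinesin, had a ratio of -0.33 and ANLN, a cytokinesis protein, one of -0.31. The other lower genes were CKAP2 (-0.29), a spindle-associated protein, TTK (-0.28), a spindle checkpoint kinase, CENPE (-0.28), a kinetochore motor, and MKI67 (-0.27), the proliferation marker. MKI67 missed the threshold after loess normalization (-0.22) and another quantile normalization (-0.20), as did CKAP2 (-0.24) and ANLN (-0.26) after the latter, and TTK (-0.25) and CENPE (-0.21) with the offset. The count was 8 with centred ratios, 6 after loess normalization, and 4 both after another quantile normalization and with the offset. Of the 28 genes, 2 had a lower ratio than TOP2A as deposited and 7 after loess normalization. UBE2C, a ubiquitin-conjugating enzyme of mitotic exit, had the highest ratio at 0.13, followed by the mitotic kinase AURKB at 0.06. The study reports that U937 cells with added TWIST-1 accumulated in S phase. Whether the share of cells in each phase differed between the cultures on these arrays was not tested here.

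Genes for factors and complexes that bind the motifs shown for TOP2A were also measured. Of 14 genes for NF-Y subunits and for DREAM and MuvB complexes, which repress or activate cell cycle genes in turn, RBL1 and RBL2 were lower, 2 of 14 beside 2.85% of all named genes. These pocket proteins of the repressive DREAM complex had ratios of -0.29 and -0.27. After another quantile normalization both were short of 1.2-fold, at -0.24 and -0.23, and RBL2 also was after loess normalization (-0.24) and with the offset (-0.25). LIN52, a MuvB subunit named after its values were seen, was at -0.23 as deposited and past 1.2-fold under the other 3 scalings, from -0.28 to -0.27. MYBL2, the activating partner of MuvB, had the highest ratio at 0.13, beside LIN37 at 0.13. The NF-Y subunit genes lay on both sides of 0 and were short of 1.2-fold, with NFYA at -0.16, NFYB at -0.11 and NFYC at 0.08. LIN54 had equal values on both arrays. These genes were named after their values were seen. The list median was -0.08.

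**Figure D4:**
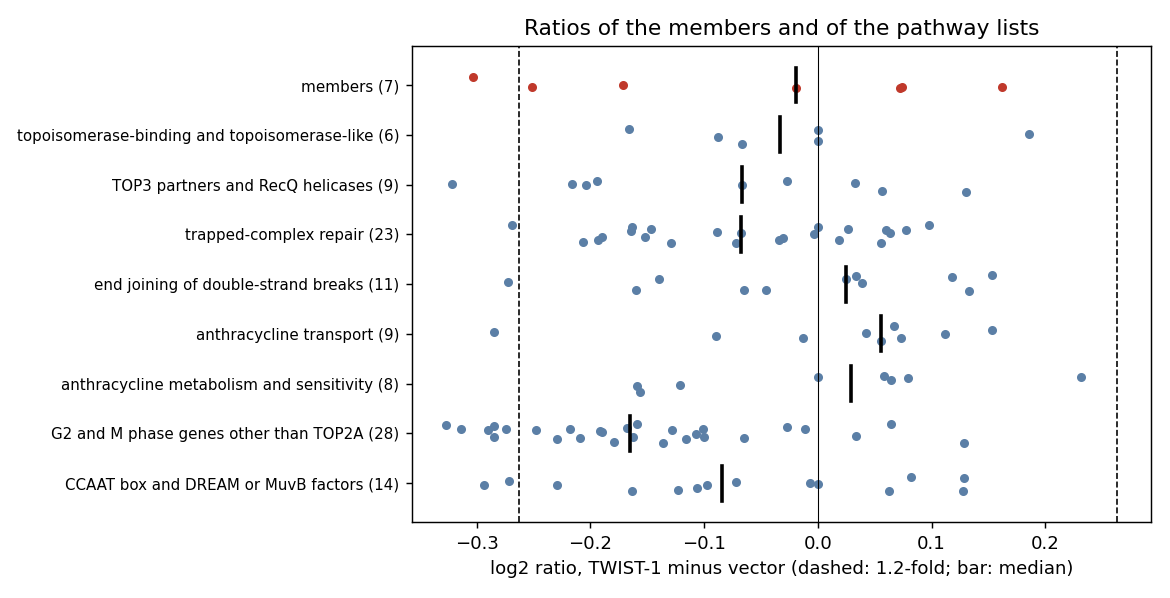
Log2 ratios (TWIST-1 minus vector, horizontal axis) of single genes in the topoisomerase set (red) and in 8 lists of related genes (blue), with the number measured in brackets, a bar at each median and dashed lines at 1.2-fold. The G2 and M phase list has the lowest median, at -0.17, and every list has genes on both sides of the overall median of 0.04. Vertical scatter within a list only separates points.

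The genes whose values lay nearest to TOP2A on both arrays were LPCAT2, a phospholipid acyltransferase (distance 0.02, values 8.85 and 8.53), KIF5B, a transport kinesin (0.04, values 8.86 and 8.59), and CHSY1, a chondroitin synthase (0.04, values 8.85 and 8.59). The distance is Euclidean over 2 log2 values, and with 2 arrays such likeness says little.

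TWIST1 itself was at 4.13 on the vector array and 4.34 on the TWIST-1 array, a ratio of 0.21. This was short of 1.2-fold, and 1287 named genes had a higher ratio. Genes under the median level of 5.19, as TWIST1 was, had a median ratio of 0.07. The TWIST1 value is thus a weak check of the labels and does not by itself show overexpression. The study examined its stable TWIST-1 lines by real-time PCR and Western blot. Markers of the labelled cell type were present, with log2 values of 11.6 and 11.4 for the lysozyme gene LYZ. Of 12 myeloid markers measured, 3 were at least 1.2-fold lower (LYZ -0.27, PRTN3 -0.29 and FCER1G -0.47), beside 2.85% of all named genes, and 4 had ratios above 0. Only FCER1G stayed past the threshold after loess (-0.42) or another quantile normalization (-0.40), where the list median went from -0.08 to -0.01 and -0.0027. Their summed linear level was 12301 on the vector array and 11187 on the TWIST-1 array. Markers of T cells (4 measured), B cells (2), erythroid cells (2) and stromal cells (3) had log2 values from 2.43 to 5.90, and none was past 1.2-fold. Their part in the ratios given above was not tested.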

How the data were processed

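The authors deposited log2 values for 70523 array entries after quantile normalization, as the methods state, with Affymetrix Expression Console named in the submitters' processing notes. How probes were summarised and corrected for background was not stated in the labels or methods. The 2 arrays, 1 per condition, were used as deposited. Their medians were 3.90 (vector) and 3.97 (TWIST-1), and their sorted values differed by up to 0.144, so another quantile normalization still moved values. The probe annotation gave 23781 entries 1 symbol and 1543 several, and 45199 entries were unlisted. Among entries with 1 symbol, 21497 were matched by gene identifier and given the RefSeq symbol (GRCh38.p14), whether or not it differed. The brightest entry stood for a gene, and all 7 measured members had 1 entry. Members and lists were chosen with earlier results of these data known. Named are the members, TWIST1, the 2 highest and 2 lowest genes of each list, every list gene past 1.2-fold, and the 3 genes nearest to TOP2A. MRE11, RAD50, LIN52, ECT2, NFYA, NFYB and NFYC, and LIG3, CBR3 and LIN54 among genes of equal value, were named after their values were seen. A planned comparison of TOP2A with TOP2B was not made, since TOP2B had no entry of its own. Alternatives were centring, loess (span 0.7, 3 iterations), another quantile normalization, an offset of 16, the mean of entries, a level filter and 1.5-fold. Precision is limited by the number of arrays. Only the 1.2-fold call was tried on simulated ratios, with added shifts larger than any ratio of the 7 genes. The other steps were not tested in this way. Software was limma 3.58.1 in R 4.3.3, and pandas 2.3.3 and numpy 2.4.6 in Python 3.11.15.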

Additional observations from a re-analysis of the deposited data

How the results depend on the processing

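Of the 7 measured genes, 1 was at least 1.2-fold lower as deposited, 2 were when ratios were centred, and 0 were under loess normalization, under another quantile normalization or at 1.5-fold. None was higher under any alternative run. With an offset of 16 on the linear scale, TOP2A stayed past 1.2-fold at -0.29. Over all named genes, 641 were lower as deposited, 1084 centred, 275 with the offset and 22 at 1.5-fold, and 609 were higher as deposited, 329 centred, 331 after loess normalization, 372 after another quantile normalization, 83 with the offset, 186 at or above the median level and 7 at 1.5-fold. A stricter threshold, fewer genes and a constant subtracted from every ratio account for their own counts. For the others the cause was not tested. The ratios were read against the SD of 0.07 between entries of the same gene, and 34 of 35 alternative values of the 7 genes lay within it. The exception was TOP2A after another quantile normalization, at -0.23. The SD came from the same 2 arrays and is not an error between arrays. Some of the alternative values could not have left it. Each of the 7 genes had 1 entry, so the mean of entries changed none of them, and centring moved every ratio by only 0.04. No paired analysis was possible because each group has 1 array.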

Other observations

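Many entries had exactly the same deposited log2 value on both arrays. This held for 1177 of the 22465 named genes (5.24%), for 5 of the 108 measured genes of the pathway lists and for none of the 7 topoisomerase and TDP genes. The 5 were SPO11, TOP6BL, LIG3, CBR3 and LIN54. A log2 ratio of exactly 0 in these genes is thus a common value of the table.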
